A study of Mus musculus with 12 samples.

Results

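The serpins are a family of protease inhibitors and related proteins that share one fold. The genes described here are the protein-coding mouse genes whose symbol begins with Serpin, found by matching the gene identifiers of the deposited table to GENCODE M21, which gave 61 genes of 54392 rows. Agt, which encodes angiotensinogen and belongs to clade A, does not carry the name and is not among them. The 61 genes fall into clades by the letter after the name: 24 in clade A, 26 in clade B, 1 in clade C, 1 in clade D, 3 in clade E, 2 in clade F, 1 in clade G, 1 in clade H and 2 in clade I. The values come from 12 RNA sequencing libraries of the immortalised mouse embryo fibroblast line NIH-3T3. Of these libraries, 3 are from cells with intact Crls1 (Crls1WT, here WT) and 3 from each of the lines Crls1KO1, Crls1KO2 and Crls1KO3 (here KO1, KO2 and KO3). The targeted gene encodes cardiolipin synthase, the enzyme for cardiolipin, which is a lipid of mitochondria. The knockout lines were made by transfection of a plasmid with Cas9 and a guide RNA against Crls1, and each line grew from 1 cell sorted for green fluorescence, per the labels' protocols, so each is 1 clone. All groups grew in the same serum-containing medium with glucose, glutamine, pyruvate and uridine. The labels do not say that the WT cells were transfected or sorted, nor that the 3 libraries of a group came from separate cultures, so the p-values below measure only the spread between these libraries, which may be technical. A difference between 1 clone and WT cannot be told apart from a difference that the founding cell already had.

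A typical serpin presents an exposed loop as bait to its target protease, and after cleavage the loop inserts into the body of the serpin and traps the enzyme in an inactive covalent complex. Clade A holds mostly secreted plasma proteins made in liver, such as alpha-antitrypsin and antichymotrypsin, and clade B holds mostly intracellular inhibitors that guard cells against leaked proteases such as granzymes and cathepsins. Members known from fibroblasts include pigment epithelium-derived factor (Serpinf1), which has no known inhibitory activity, and the collagen chaperone HSP47 (Serpinh1), which has lost inhibition and binds procollagen in the endoplasmic reticulum. Mice carry expanded clusters of near copies of Serpina1 and Serpina3 on chromosome 12 and of Serpinb1, Serpinb6 and Serpinb9 on chromosome 13.

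The libraries held 32929242 to 42211807 reads assigned to genes. Pearson correlations of log2 values were 0.942 to 0.9505 across clones, 0.918 to 0.941 from WT to clone libraries and 0.981 to 0.989 inside groups. Among WT libraries replicate 1 was the least like the rest: chi-square values over their degrees of freedom were 57.6 and 60.5 for its counts, 18.6 for the other WT pair and 4.89 to 27.1 inside clones. Crls1 itself was at 740, 873 and 834 normalized counts in WT, 209, 209 and 213 in KO1, 336, 338 and 374 in KO2 and 363, 372 and 408 in KO3. The WT and clone ranges of Crls1 did not overlap, and its transcript remained detectable in every clone. Fibroblast markers such as Col1a2, Fn1 and Vim were abundant throughout, while Lum was at 0 in all libraries and Dcn reached at most 2.0. Others differed: Col3a1 was at 133 to 156 in WT and 772 to 9159 in clone libraries, and Postn at most 6.2 and 10.5 to 391. Of 13 tested fibroblast markers, 6 were higher and 3 lower in KO1 at an adjusted p under 0.05 (limma), 7 and 2 in KO2 and 6 and 3 in KO3.

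Of the 61 Serpin genes, 16 had no read in any library, 15 had reads but were not tested, and 30 passed the filter of at least 10 normalized counts in at least 3 of 12 libraries. Clade A had 11 tested genes, all on chromosome 12, and clade B had 13, of which 12 lie on chromosome 13. All Serpin genes together took 0.2205% to 0.355% of the reads of a library.

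The calls against WT differed in number and direction from clone to clone. In such bulk samples, fewer cells that express a gene and less RNA per cell cannot be told apart. In KO1, 21 of 30 tested Serpin genes were higher than in WT and 3 were lower at an adjusted p under 0.05, with a median log2 difference of 3.13, while of all 15073 genes tested 26.9% were called higher and 25.4% lower, with a median of 0.02. In KO2, 6 were higher and 6 lower with a median of -0.02, while 29.9% of all genes were called higher and 30.5% lower. The share of Serpin genes called was below that background. However, 13 tested Serpin genes had a WT mean below 10 and 15 had a KO2 mean below 10. A gene near 0 in both groups could hardly be called. In KO3, 18 were higher and 4 lower with a median of 1.12, while 26.8% of all genes were called higher and 27.3% lower. Without WT replicate 1 the counts were 21 higher and 3 lower in KO1, 7 and 6 in KO2, and 18 and 4 in KO3.

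Those counts depend in part on the filter. Only 11 of the 30 tested genes had at least 10 normalized counts in all 3 WT libraries, and 13 had a WT mean below 10, so they entered the test through a clone in which they were higher. The medians above rest on those genes too. Of the 11 genes already present at that level in WT, 6 were higher and 2 lower in KO1, 3 higher and 3 lower in KO2, and 8 higher and 2 lower in KO3. Their median log2 differences were 0.56, -0.02 and 0.72. Of all 13219 tested genes at that level in WT, 24.3% were higher and 28.7% lower in KO1, 29.4% and 34.2% in KO2, and 26.2% and 30.1% in KO3, with medians of -0.02, -0.03 and -0.02.

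**Figure D1:**
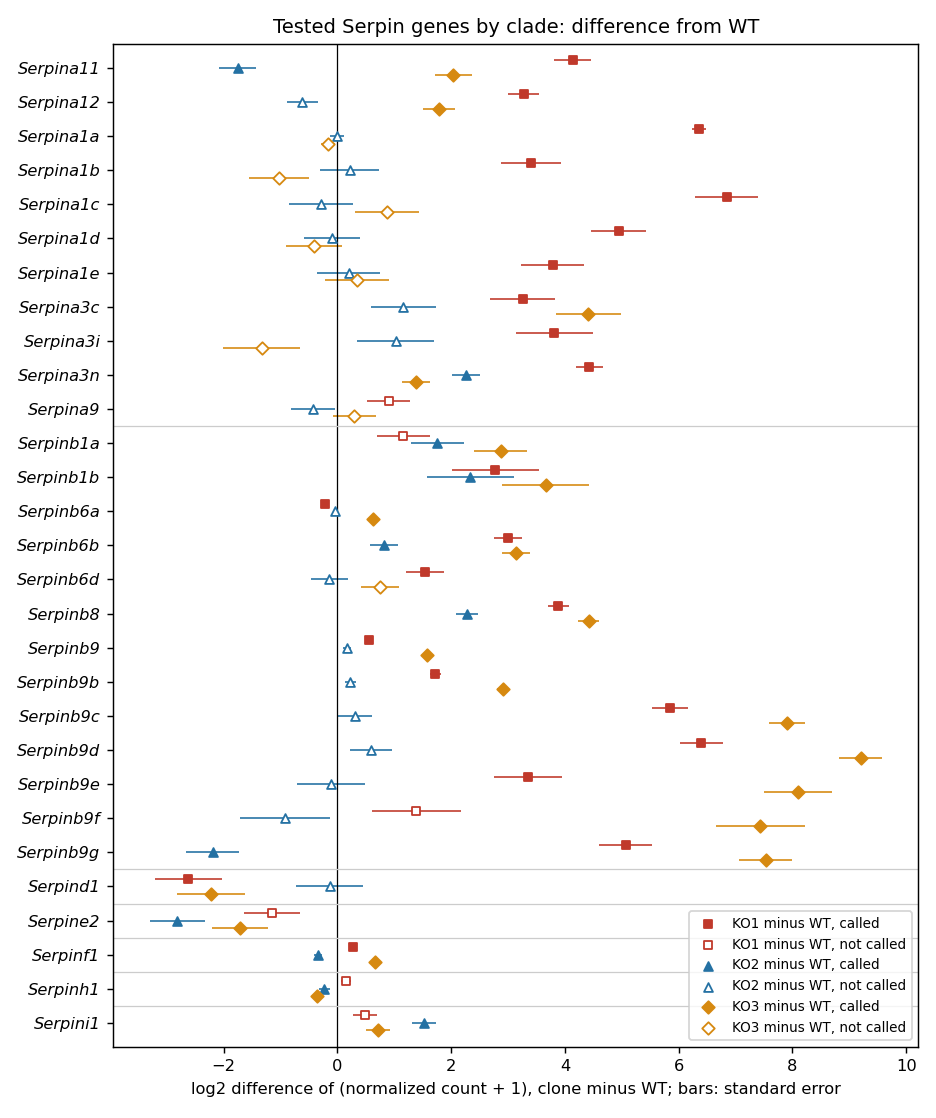
Each row is a tested Serpin gene with values given here, ordered by clade; points give the log2 difference of (normalized count + 1) between KO1, KO2 or KO3 and WT (3 libraries each) and bars its standard error. Serpina1a to Serpina1e, Serpina3i and Serpinb6d were called higher in KO1 alone, and Serpinb9c, Serpinb9d, Serpinb9e and Serpinb9g lie to the right in KO1 and KO3.

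Of the 30 tested Serpin genes, 5 were called alike in all 3 clones. The 4 higher in all, a share near that of all genes tested, were Serpina3n, Serpinb1b, Serpinb6b and Serpinb8. Of all genes tested, 12.9% were called higher and 13.3% lower in all 3. A further 10 genes were higher in KO1 and KO3 but not called higher in KO2. The share of all genes tested with this pattern was not counted, so the 10 cannot be set against a background. Some of them, such as Serpina3c and Serpinb9c, had no read in WT and passed the filter only through clones. Serpina11, Serpinb6a, Serpinb9g and Serpinf1 were called in opposite directions in different clones, and Serpina9, which encodes centerin of germinal-centre B cells, was called in none. All comparisons with WT share the same WT libraries.

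In clade A the largest log2 differences from WT were those of Serpina1a, Serpina1c and Serpina1d in KO1, where Serpina1b and Serpina1e were called higher too. The Serpina1 genes encode the mouse forms of alpha-antitrypsin, a secreted inhibitor of neutrophil elastase. Serpina1a (ENSMUSG00000066366.14, chromosome 12, 103853589 to 103863562, minus strand, GRCm38) was at 138, 163 and 180 normalized counts in WT, 13426, 12701 and 13080 in KO1, 157, 186 and 134 in KO2 and 143, 133 and 150 in KO3. The KO1 libraries stood far above all others, while WT, KO2 and KO3 overlapped. The log2 difference from WT was 6.35 in KO1 (SE 0.12, adjusted p = 2.17e-12), an 81.7-fold ratio of means, and -0.02 (adjusted p = 0.928) in KO2 and -0.16 (adjusted p = 0.290) in KO3. Relative to the 20 nearest tested genes, Serpina1a was called lower in KO2 (-0.50, adjusted p = 0.00859) and KO3 (-0.66, adjusted p = 0.00180).

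Serpina1c showed the same order at a lower level. It was at 3.53, 15.5 and 8.13 in WT, 870, 1062 and 1114 in KO1, 12.1, 1.92 and 8.79 in KO2 and 16.6, 9.65 and 21.3 in KO3. All KO1 libraries lay above all others, and WT overlapped both KO2 and KO3. Its log2 difference in KO1 was 6.84 (SE 0.55, adjusted p = 6.38e-07). Serpina1b, Serpina1d and Serpina1e had 3, 2 and 1 reads in WT and 60, 146 and 47 in KO1 over 3 libraries each. The ratios of KO1 to WT were 20.2 for Serpina1b (95% counting interval 6.58 to 101), 73.6 for Serpina1d (20.02 to 614) and 47.4 for Serpina1e (8.10 to 1912). These intervals cover counting error only.

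The Serpina1 genes are near copies, so the split between them is uncertain. Of the distinct 31-base words in its transcripts, Serpina1a shares 65.2% with another gene, Serpina1c 82.2%, Serpina1d 64.7%, Serpina1e 54.2% and Serpina1b 44.7%. The pseudogene Gm8893, which shares words with Serpina1a and Serpina1c, was at 0 in all WT libraries and at 22.5, 29.6 and 26.6 in KO1. The sum of Serpina1a to Serpina1e does not depend on the split among them. It was 14172 ± 273 (SD, n = 3) in KO1, 171 ± 24.4 in WT, 169 ± 21.6 in KO2 and 159 ± 13.9 in KO3. The sum was 82.8-fold higher in KO1 than in WT.

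The sequences just upstream of the Serpina1 starts were compared because these genes rose together in KO1. The 120 bases before the RefSeq start (build GRCm38.p6, minus strand) are given 5′ to 3′, with capitals marking bases that differ from Serpina1a or have no partner there in a pairwise alignment. They lie at chr12:103863620-103863739 for Serpina1a, chr12:103738190-103738309 for Serpina1b, chr12:103904951-103905070 for Serpina1c and chr12:103773634-103773753 for Serpina1d.
Serpina1a: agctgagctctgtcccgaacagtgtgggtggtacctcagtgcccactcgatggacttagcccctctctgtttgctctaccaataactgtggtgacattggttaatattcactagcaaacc
Serpina1b: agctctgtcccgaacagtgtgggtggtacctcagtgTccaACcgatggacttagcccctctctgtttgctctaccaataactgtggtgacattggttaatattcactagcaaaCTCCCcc
Serpina1c: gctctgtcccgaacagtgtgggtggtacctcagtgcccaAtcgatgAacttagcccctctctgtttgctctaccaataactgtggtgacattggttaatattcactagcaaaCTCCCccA
Serpina1d: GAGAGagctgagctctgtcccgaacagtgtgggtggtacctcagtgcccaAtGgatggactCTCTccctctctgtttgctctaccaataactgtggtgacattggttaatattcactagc
The stretches of Serpina1b, Serpina1c and Serpina1d were identical to that of Serpina1a at 89.6%, 88.9% and 87.2% of aligned columns. Serpina1e, which also rose in KO1, was less alike: over 250 bases before the start it matched Serpina1a at 60.3% of aligned columns. The CCAAT motif, searched on both strands, was found in the 250 bases before the start of each of Serpina1a to Serpina1e, and in 33.8% of 32851 promoters of that length. Serpina1a to Serpina1d are near copies there, so their matches are not separate observations. Other motifs were also searched and are not given for these genes. These RefSeq starts do not all match a GENCODE M21 transcript start.

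Markers of hepatocytes, the main source of plasma alpha-antitrypsin, were near 0. Of 12 listed hepatocyte genes, 11 were matched by symbol and 1 passed the filter (Apob). The entry Tf, for transferrin, matched no symbol, so transferrin was not looked at. The summed level of the 11 was 17.6 to 28.0 in WT, 13.8 to 33.8 in KO1, 3.8 to 17.6 in KO2 and 14.5 to 28.8 in KO3. Ttr and Fgb were at 0 in every library, and Alb reached at most 0.9 and Apoa1 at most 2.1. The summed level in KO1 overlapped that in WT.

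**Figure D2:**
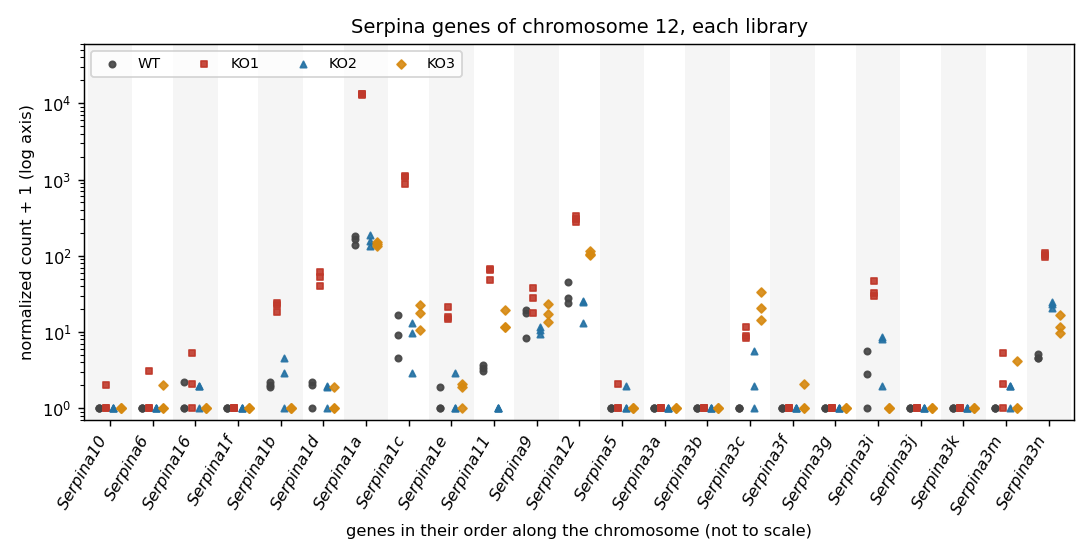
Normalized count plus 1 on a log axis for the 23 Serpina genes of chromosome 12 in their order along the chromosome; each point is 1 library of WT, KO1, KO2 or KO3. Serpina1a reaches 12701 to 13426 in KO1 and stays between 133 and 186 in all other libraries.

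The rest of clade A was low in WT and rose mostly in KO1. Serpina12, which encodes the adipokine vaspin, was at 27.0, 22.8 and 44.3 in WT, 302, 274 and 327 in KO1, 12.1, 23.96 and 24.6 in KO2 and 105, 114 and 101 in KO3. KO1 lay highest and KO3 next, both clear of WT, and KO2 overlapped WT. Its log2 differences were 3.27 in KO1 (SE 0.28, adjusted p = 9.62e-07), 1.79 in KO3 (adjusted p = 0.000152) and -0.62 in KO2 (adjusted p = 0.0734). Without WT replicate 2 or KO2 replicate 3 the KO2 value of Serpina12 was -0.81 (adjusted p = 0.0345) or -0.78 (adjusted p = 0.0437).

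Serpina3n, an antichymotrypsin-like acute-phase inhibitor, rose in every clone. It was at 3.53, 4.14 and 3.61 in WT, 108, 96.0 and 100.3 in KO1, 22.4, 23.96 and 19.3 in KO2 and 15.5, 8.77 and 10.7 in KO3. No clone overlapped WT, and the log2 differences of Serpina3n were 4.43, 2.26 and 1.38 in KO1, KO2 and KO3 (SE 0.24, adjusted p = 1.73e-08, 5.24e-06 and 0.000393). Among its neighbours, Serpina3c had 25 reads in KO1, 65 in KO3, 6 in KO2 and 0 in WT, which is at least 8.405-fold higher in KO1 and at least 20.8-fold higher in KO3 with 3 reads over the WT group as the floor. Serpina3i rose in KO1 (log2 difference 3.81, adjusted p = 0.000471). Its reads were 4, 0 and 2 in the WT libraries and 0 in every KO3 library, so KO3 overlapped WT. In KO2 and KO3 the log2 differences of Serpina3i were 1.02 and -1.33 (adjusted p = 0.210 and 0.115), and its KO2 value became 1.73 (adjusted p = 0.0355) without KO2 replicate 1 while its KO3 difference passed the threshold (adjusted p = 0.0211) without WT replicate 2. The KO2 value of Serpina3c became 1.74 (adjusted p = 0.0151), from 1.16 (adjusted p = 0.0984), without KO2 replicate 3.

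Serpina11, a clade A gene that lies between Serpina1e and Serpina9, was at 2.35, 2.07 and 2.71 in WT, 47.1, 65.4 and 63.9 in KO1, 0 in all KO2 libraries and 18.7, 10.5 and 10.7 in KO3. The groups did not overlap. It rose in KO1 and KO3 (log2 differences 4.14 and 2.04, SE 0.32, adjusted p = 4.62e-07 and 0.000182). Its fall in KO2 was from 7 reads to 0, or 2.596-fold with 3 reads over KO2 as the floor. That value leaves out the counting error of the 7 reads. Serpina9 had log2 differences of 0.90, -0.43 and 0.30 (adjusted p = 0.0648, 0.351 and 0.536). In KO1, Serpina9 was at 1.14 (adjusted p = 0.0401) without WT replicate 2 and 1.18 (adjusted p = 0.0319) without KO1 replicate 2.

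In clade B the largest log2 differences from WT were those of Serpinb9c, Serpinb9d and Serpinb9g in KO1 and of Serpinb9c to Serpinb9g in KO3. Serpinb9 encodes an intracellular inhibitor of granzyme B, the killing protease of cytotoxic lymphocytes, and Serpinb9b to Serpinb9g are its rodent relatives. Serpinb9 itself (ENSMUSG00000045827.10, chromosome 13, 33003250 to 33017957, plus strand) was at 574, 485 and 572 in WT, 805, 806 and 779 in KO1, 592, 620 and 618 in KO2 and 1676, 1600 and 1597 in KO3. KO1 and KO3 lay clear of WT, and KO2 lay just above it. Differences of log2 values were 0.56 in KO1 (SE 0.07, adjusted p = 3.73e-05), 1.58 in KO3 (adjusted p = 2.32e-09) and 0.17 in KO2 (adjusted p = 0.0560).

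Serpinb9b followed the same order with a wider range. It was at 173, 156 and 178 in WT, 518, 560 and 598 in KO1, 181, 200.3 and 214 in KO2 and 1315, 1321 and 1189 in KO3. Every clone lay above WT, KO2 only just. The log2 differences of Serpinb9b were 1.72 in KO1 (SE 0.09, adjusted p = 1.82e-08), 2.91 in KO3 (adjusted p = 1.43e-10) and 0.23 in KO2 (adjusted p = 0.0534). The KO2 values of both genes lay on the threshold: without WT replicate 1 or 3 Serpinb9 was at 0.21 (adjusted p = 0.0243 or 0.0401), and without WT replicate 3 or KO2 replicate 1 Serpinb9b was at 0.27 (adjusted p = 0.0495) or 0.29 (adjusted p = 0.0270).

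Serpinb9c to Serpinb9f were at or near 0 in WT and KO2, and Serpinb9g was low. Serpinb9g was at 9.41, 10.4 and 13.5 in WT, 401, 434 and 371 in KO1, 1.87, 0 and 5.27 in KO2 and 2297, 2226 and 2123 in KO3. None of its groups overlapped: KO3 lay highest, then KO1, then WT, then KO2. Serpinb9g differed from WT by log2 values of 5.07 in KO1, -2.19 in KO2 and 7.53 in KO3 (SE 0.47, adjusted p = 2.13e-06, 0.00143 and 4.37e-08).

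Serpinb9d was at 0, 2.07 and 0 in WT, 124, 126 and 115 in KO1, 0.933, 0.958 and 1.76 in KO2 and 846, 862 and 850 in KO3. Serpinb9e was at 1.18, 5.18 and 0 in WT, 26.8, 19.0 and 24.6 in KO1, 0, 1.92 and 2.64 in KO2 and 636, 713 and 607 in KO3. Serpinb9c was at 0 in every WT library, at 46.0, 71.8 and 55.1 in KO1, at 0, 0 and 0.879 in KO2 and at 224, 265 and 228 in KO3. In each of these genes KO3 lay above KO1, KO1 lay above WT, and KO2 overlapped WT. Serpinb9c was at least 56.1-fold higher in KO1 and at least 234-fold higher in KO3 than in WT, taking 3 reads over the WT group as the floor. The ratio of KO3 to WT was 1247 for Serpinb9d (95% counting interval 345 to 10302), whose WT level rests on 2 reads. For Serpinb9e the log2 differences were 3.35 in KO1 (adjusted p = 0.000477) and 8.10 in KO3 (adjusted p = 2.02e-07), with a SE of 0.59. In KO2 the log2 difference of Serpinb9d was 0.59 (adjusted p = 0.193), and 1.13 (adjusted p = 0.00130) without WT replicate 2, which holds both WT reads of that gene.

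Serpinb9f was at 2.35, 1.04 and 0 in WT, 12.8, 0 and 7.87 in KO1, 0 in all KO2 libraries and 336, 362 and 289.8 in KO3. KO3 stood apart from every other group, and KO1 overlapped WT. The log2 difference of Serpinb9f was 7.44 in KO3 (SE 0.79, adjusted p = 5.81e-06) and 1.39 in KO1 (adjusted p = 0.160). As WT holds 3 reads of Serpinb9f, the read ratio to WT was 323 in KO3 (95% counting interval 110.1 to 1568) and 6.72 in KO1 (1.99 to 35.3). Without KO1 replicate 2, the KO1 library at 0, the difference in KO1 was 2.55 (adjusted p = 0.00110).

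The Serpinb9 relatives also share sequence. Serpinb9f shares 87.3% of its 31-base words with another gene, Serpinb9g 67.9%, Serpinb9d 47.1%, Serpinb9e 46.2% and Serpinb9c 18.8%, but Serpinb9 only 4.91% and Serpinb9b 5.02%. The protein-coding gene Gm11397, which shares words with Serpinb9d to Serpinb9g, had means of 48.9 in KO3, 2.68 in KO1, 1.28 in KO2 and 0 in WT. Summed over Serpinb9c to Serpinb9g, the level was 4288 ± 170 (SD, n = 3) in KO3, 612 ± 38.3 in KO1, 15.0 ± 3.13 in WT and 5.41 ± 4.45 in KO2. The sum was 40.7-fold higher in KO1 and 285-fold higher in KO3 than in WT, and 7.01-fold higher in KO3 than in KO1.

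The sequences upstream of Serpinb9d to Serpinb9g are shown because these genes were all called higher in KO3. In KO1 Serpinb9d, Serpinb9e and Serpinb9g were called higher and Serpinb9f was not. The 120 bases before the RefSeq start (build GRCm38.p6, plus strand) are given 5′ to 3′, with capitals marking bases that differ from Serpinb9g or have no partner there in a pairwise alignment. They lie at chr13:33484670-33484789 for Serpinb9g, chr13:33192835-33192954 for Serpinb9d, chr13:33249488-33249607 for Serpinb9e and chr13:33323957-33324076 for Serpinb9f.
Serpinb9g: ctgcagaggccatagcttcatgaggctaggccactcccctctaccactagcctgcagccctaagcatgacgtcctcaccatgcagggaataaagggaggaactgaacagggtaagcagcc
Serpinb9d: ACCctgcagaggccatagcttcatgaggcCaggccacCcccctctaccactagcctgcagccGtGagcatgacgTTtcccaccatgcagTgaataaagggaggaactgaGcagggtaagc
Serpinb9e: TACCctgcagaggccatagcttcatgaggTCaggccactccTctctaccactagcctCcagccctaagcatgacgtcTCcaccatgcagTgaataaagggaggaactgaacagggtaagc
Serpinb9f: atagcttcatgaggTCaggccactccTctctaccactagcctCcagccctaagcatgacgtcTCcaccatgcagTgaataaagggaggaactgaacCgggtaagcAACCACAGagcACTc
The stretches of Serpinb9d, Serpinb9e and Serpinb9f were identical to that of Serpinb9g at 87.2%, 87.9% and 77.1% of aligned columns. Over the 250 bases before the start, Serpinb9 matched Serpinb9b at 58.2% of aligned columns and Serpinb9g at 46.7%. Serpinb9c, called higher in KO1 and KO3 as well, matched Serpinb9g at 61.9% over that length. The motifs TATAAA, found in 12.4% of 32851 promoters of that length on either strand, and CCAAT, found in 33.8%, did not occur in the windows of Serpinb9b, Serpinb9d, Serpinb9e, Serpinb9f or Serpinb9g. As Serpinb9d to Serpinb9g are alike there, these are not separate observations.

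**Figure D3:**
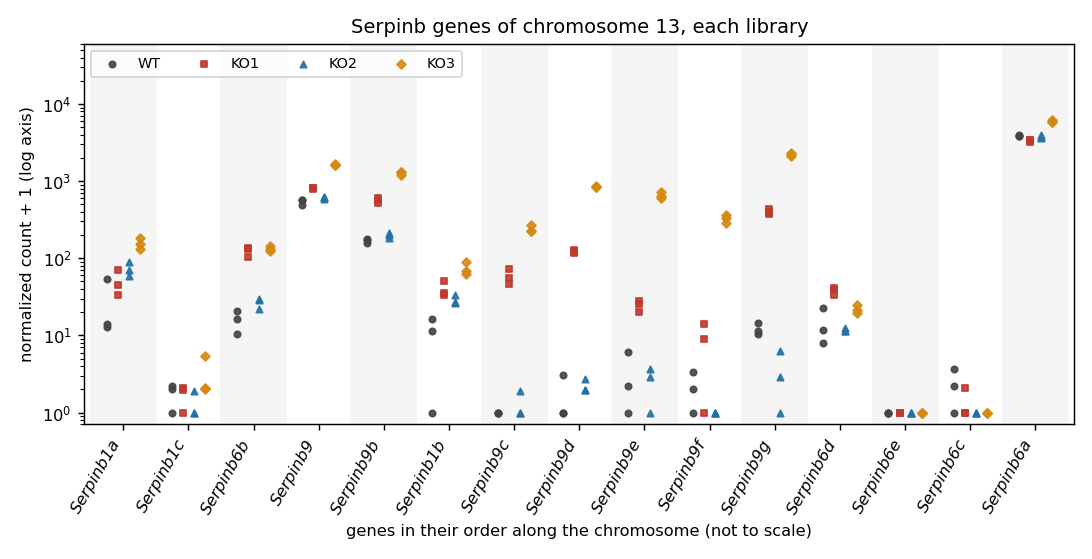
Normalized count plus 1 on a log axis for the Serpinb genes of chromosome 13 in their order along the chromosome; each point is 1 library of WT, KO1, KO2 or KO3. Serpinb9c to Serpinb9g are highest in KO3, where Serpinb9g reaches 2123 to 2297, and Serpinb6a stays between 3237 and 6267 in all libraries.

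Serpinb8, an intracellular clade B inhibitor that can inhibit furin in vitro, lies on chromosome 1, away from the other tested clade B genes. It was at 39.98, 22.8 and 24.4 in WT, 423, 431 and 436 in KO1, 143, 121 and 162 in KO2 and 707, 598 and 567 in KO3. No 2 groups overlapped, with WT lowest and KO3 highest. The log2 differences of Serpinb8 from WT were 3.89, 2.28 and 4.42 in KO1, KO2 and KO3 (SE 0.19, adjusted p = 6.31e-09, 5.91e-07 and 1.48e-09).

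Serpinb6a encodes the broadly expressed member of the Serpinb6 group and was the most abundant clade B gene in WT. It was at 3999.7, 3854 and 3812 in WT, 3409, 3439 and 3237 in KO1, 4009.9, 3642 and 3745 in KO2 and 6267, 5883 and 5889.6 in KO3. KO3 lay above and KO1 below all WT libraries, and KO2 overlapped them. The log2 differences of Serpinb6a were -0.21 in KO1 (SE 0.05, adjusted p = 0.00423), -0.03 in KO2 (adjusted p = 0.584) and 0.63 in KO3 (adjusted p = 5.23e-07). The KO1 call ended with quantile normalization (-0.12, adjusted p = 0.0744) and turned to 0.089 (adjusted p = 0.449) relative to the 20 nearest tested genes.

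Serpinb6b was at 15.3, 9.32 and 19.9 in WT, 129.5, 134 and 102 in KO1, 28.0, 28.7 and 21.1 in KO2 and 131, 143 and 125 in KO3. All clones lay above WT, with KO1 and KO3 alike in range and KO2 near WT. Its log2 differences were 3.01, 0.81 and 3.14 (SE 0.25, adjusted p = 7.03e-07, 0.0126 and 3.85e-07), and the KO2 value was 0.53 (adjusted p = 0.0488) without WT replicate 2. With only KO2 and WT in the fit the KO2 call of Serpinb6b ended (adjusted p = 0.0683). Serpinb6d rose in KO1 (log2 difference 1.54, SE 0.33, adjusted p = 0.00187). In KO3 Serpinb6d was at 0.75 (adjusted p = 0.0739), and at 1.15 (adjusted p = 0.00402) without WT replicate 2.

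The Serpinb1 genes encode inhibitors of neutrophil elastase-like proteases. Serpinb1a was at 12.9, 52.8 and 11.7 in WT, 43.9, 69.7 and 32.5 in KO1, 87.7, 57.5 and 69.5 in KO2 and 133, 183 and 150.2 in KO3. KO2 and KO3 lay above WT, and KO1 overlapped it through WT replicate 2. On the log2 scale the difference of Serpinb1a was 1.75 in KO2 (SE 0.47, adjusted p = 0.00600), 2.87 in KO3 (adjusted p = 0.000218) and 1.16 in KO1 (adjusted p = 0.0544). In KO1 Serpinb1a was at 1.83 (adjusted p = 0.000444) without WT replicate 2 and 1.41 (adjusted p = 0.0456) without KO1 replicate 3.

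Serpinb1b rose in all clones, at levels of 0, 10.4 and 15.4 in WT, 34.2, 32.7 and 49.2 in KO1, 25.2, 32.6 and 26.4 in KO2 and 67.4, 88.6 and 60.7 in KO3. All clones lay above WT, KO3 most. As log2 differences these were 2.78, 2.34 and 3.66 (SE 0.77, adjusted p = 0.00908, 0.0191 and 0.00145), and 1.52, 1.08 and 2.41 (adjusted p = 0.000564, 0.00445 and 1.26e-05) without WT replicate 1, the WT library at 0. The KO2 call of Serpinb1b was lost without KO2 replicate 2 (2.23, adjusted p = 0.0539). With only the groups compared in the fit, the Serpinb1b calls in KO1 and KO2 ended (adjusted p = 0.0508 and 0.102).

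The clade E gene Serpine2 encodes protease nexin, a cell-surface inhibitor of thrombin and plasminogen activators, and was scarce. It was at 9.41, 13.5 and 15.4 in WT, 3.21, 12.7 and 2.95 in KO1, 0.933, 0.958 and 0.879 in KO2 and 2.07, 4.39 and 3.20 in KO3. KO2 and KO3 lay below WT, and KO1 overlapped it through KO1 replicate 2. Serpine2 fell in KO2, where 3 reads remained against 38 in WT, a WT to KO2 ratio of 14.1 (95% counting interval 4.47 to 71.4). It also fell in KO3 (log2 difference -1.72, SE 0.49, adjusted p = 0.0101), a call lost with quantile normalization (-1.53, adjusted p = 0.05001). In KO1 Serpine2 was at -1.15 (adjusted p = 0.0673), and at -1.73 (adjusted p = 0.00537) without KO1 replicate 2. Serpind1, which encodes the thrombin inhibitor heparin cofactor, had 30 reads in WT, 3 in KO1 and 31 in KO2, and fell in KO1 and KO3 (adjusted p = 0.00254 and 0.00677). The WT to KO1 ratio of Serpind1 was 9.92 (95% counting interval 3.08 to 50.8).

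**Figure D4:**
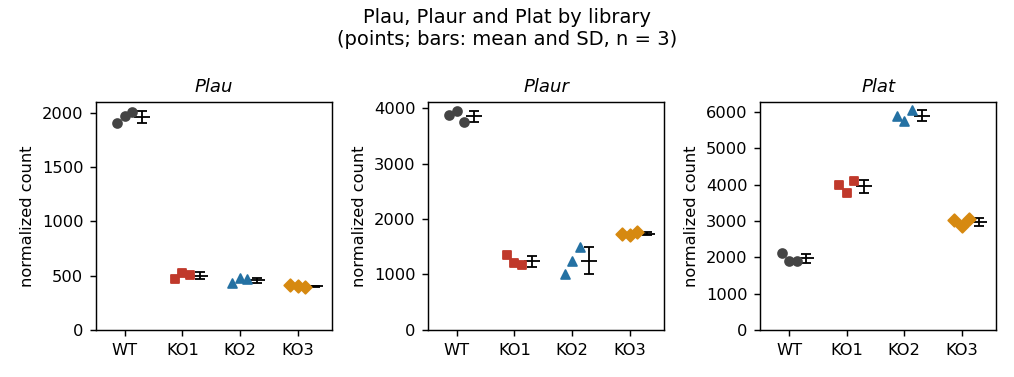
Normalized counts of Plau, Plaur and Plat in each library of WT, KO1, KO2 and KO3 (points), with the mean and SD of 3 libraries (bars). Plau and Plaur are lower in every clone library than in any WT library, and Plat is higher.

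Genes of plasminogen activation, which several serpins restrain, also moved. Plau, the urokinase-type activator, fell in all clones (log2 differences -1.97, -2.10 and -2.28 in KO1, KO2 and KO3, adjusted p = 2.89e-10, 1.84e-10 and 8.13e-11), and so did its receptor Plaur (-1.64, -1.64 and -1.15, adjusted p = 1.06e-07, 8.42e-08 and 2.20e-06). Plat, the tissue-type activator, rose in all clones (1.00, 1.58 and 0.60, adjusted p = 2.37e-08, 3.84e-10 and 2.21e-06). Lrp8, a lipoprotein receptor family member, fell in all (-1.05, -1.70 and -1.31, adjusted p = 2.08e-07, 2.29e-09 and 2.06e-08). Of 18 tested genes of the plasminogen and coagulation list, 9 were higher and 6 lower in KO1, 8 and 5 in KO2 and 7 and 8 in KO3, with medians of 0.39, 0.29 and -0.17. The medians of all genes tested were 0.02, 0.00 and 0.00.

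Serpinf1, which encodes pigment epithelium-derived factor, a secreted protein known for blocking the growth of blood vessels, changed by less than 2-fold and in different directions. It was at 20169, 20654 and 20398 in WT, 25095, 24614 and 24566 in KO1, 15232, 16457 and 16792 in KO2 and 29290.4, 31240.3 and 36094 in KO3. No 2 groups overlapped, with KO3 highest and KO2 lowest. Serpinf1 differed from WT by log2 values of 0.28, -0.34 and 0.65 (SE 0.07, adjusted p = 0.00493, 0.00108 and 6.11e-06).

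Serpinh1 encodes HSP47, which binds folded procollagen and travels with it from the endoplasmic reticulum, and had the highest level of the family per kilobase in every group. It was at 49594, 64481 and 65129.9 in WT, 67382, 65559 and 64008 in KO1, 49283, 51867 and 50693 in KO2 and 47262, 44042 and 46874 in KO3. WT replicate 1 lay far below the other WT libraries, within the KO2 range, and all KO3 libraries lay below all WT libraries. The log2 difference of Serpinh1 was -0.36 in KO3 (SE 0.09, adjusted p = 0.00445), and -0.49 (adjusted p = 3.50e-06) without WT replicate 1. In KO2 it was -0.23 (adjusted p = 0.0448), and -0.36 (adjusted p = 4.54e-05) without WT replicate 1. That call ended on leaving out WT replicate 2 or 3 (adjusted p = 0.161 and 0.1699) or KO2 replicate 1, 2 or 3 (adjusted p = 0.112, 0.0709 and 0.0821), and with quantile normalization the KO2 value was -0.00. Of 17 alternatives 6 kept the KO2 call of Serpinh1, which also ended with the replicate block (adjusted p = 0.0622), no filter (0.0790), only the groups compared (0.163), upper-quartile scaling (0.168) and relative to the 20 nearest tested genes (0.177). In KO1 Serpinh1 was at 0.15 (adjusted p = 0.194), and at 0.33 (adjusted p = 0.00553) with quantile normalization.

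Genes of collagen folding and processing were called lower more often than higher. Of 30 tested, 7 were higher and 16 lower in KO1, 6 and 16 in KO2 and 1 and 20 in KO3, with medians of -0.15, -0.16 and -0.55. Of all genes tested, 25.4%, 30.5% and 27.3% were lower in KO1, KO2 and KO3 and 26.9%, 29.9% and 26.8% higher, and the other lists can be read against the same shares. Creb3l1, a transcription factor of secretory cells, fell in all clones (-1.35, -1.37 and -0.88, adjusted p = 8.63e-08, 6.06e-08 and 3.51e-06), as did P4ha2, a collagen prolyl hydroxylase subunit (-0.36, -0.72 and -0.86, adjusted p = 1.85e-05, 2.98e-08 and 5.63e-09). Crtap, part of the prolyl 3-hydroxylation complex, fell in all clones (-0.99, -1.06 and -1.498, adjusted p = 0.000735, 0.000346 and 2.44e-05), and Pcolce, which speeds removal of the procollagen C-propeptide, rose in all (0.44, 0.74 and 0.64, adjusted p = 0.000216, 1.71e-06 and 7.81e-06). Relative to the 20 nearest tested genes Pcolce was at 0.096 in KO1 and 0.070 in KO2 (adjusted p = 0.290 and 0.418).

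**Figure D5:**
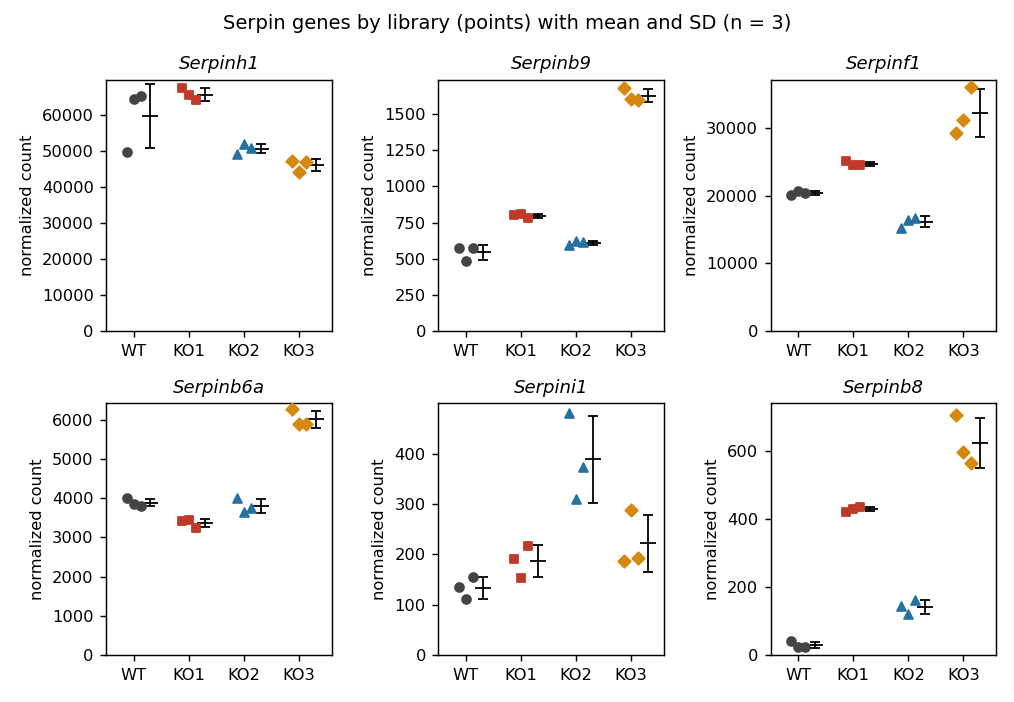
Normalized counts of Serpinh1, Serpinb9, Serpinf1, Serpinb6a, Serpini1 and Serpinb8 in each library of WT, KO1, KO2 and KO3 (points), with the mean and SD of 3 libraries (bars). Serpinb9 lies at 1597 to 1676 in KO3 and at 485 to 574 in WT, and WT replicate 1 of Serpinh1 lies at 49594, below the other WT libraries.

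Serpini1 encodes neuroserpin, an inhibitor of tissue-type plasminogen activator best known from neurons. It was at 134, 111 and 155 in WT, 192, 153 and 216 in KO1, 481, 310.5 and 375 in KO2 and 188, 288 and 192 in KO3. KO2 and KO3 lay above WT, and KO1 overlapped WT. The log2 difference of Serpini1 was 1.53 in KO2 (SE 0.21, adjusted p = 4.92e-05), and 0.72 in KO3 (adjusted p = 0.0122), a call lost without KO3 replicate 2 (0.52, adjusted p = 0.0588) or WT replicate 2 (0.59, adjusted p = 0.0516). In KO1 Serpini1 was at 0.48 (adjusted p = 0.0741), and at 0.62 (adjusted p = 0.0469) without KO1 replicate 2.

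Some well-known serpins were close to absent. Serping1, the inhibitor of the complement proteases C1r and C1s and of kallikrein, had 29 reads over the WT libraries, 5 in KO2 and 0 in KO1 and in KO3, at least 9.58-fold and at least 10.1-fold lower when 3 reads over a clone is the floor. It did not pass the filter, so it has no adjusted p. Serpinc1, which encodes antithrombin, had 20, 17, 20 and 16 reads in WT, KO1, KO2 and KO3, and Serpinf2, which encodes the plasmin inhibitor antiplasmin, had 11, 16, 8 and 17. Serpinb2, an inhibitor of urokinase-type activator, had 14 reads in KO3 and none elsewhere. The other 11 untested genes with reads, among them Serpinb5 (maspin) and Serpina6 (the corticosteroid carrier), had 1 to 12 reads over all 12 libraries.

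Complement and kinin genes, whose proteases Serping1 restrains, were counted next. Of 9 tested complement and kinin genes, 7 were higher and 1 lower in KO1, 6 and 1 in KO2 and 4 and 2 in KO3, with medians of 1.57, 1.12 and 0.57. C3, the central complement component, rose in all clones (2.58, 2.97 and 1.60, adjusted p = 4.26e-06, 8.83e-07 and 0.000211), as did C4b (2.98, 2.79 and 1.33, adjusted p = 2.15e-05, 2.71e-05 and 0.00749) and the protease C1s1 (0.27, 1.12 and 0.57, adjusted p = 0.0134, 1.69e-07 and 7.36e-05). With only the groups compared, the calls of C4b in KO3 (adjusted p = 0.0560) and C1s1 in KO1 (adjusted p = 0.0542) ended, and that of C1s1 also without WT replicate 3 or KO1 replicate 1 (adjusted p = 0.0563 and 0.0619). Bdkrb1, a kinin receptor, rose in KO1 and KO2 and fell in KO3 (1.57, 1.42 and -0.78, adjusted p = 7.96e-07, 1.46e-06 and 0.000268).

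Of the 30 listed granule, lysosomal and caspase proteases, 11 were at 0 in every library and 10 were tested. Of these, 5 were higher and 2 lower in KO1, 5 and 2 in KO2 and 4 and 2 in KO3, with medians of 0.14, 0.13 and 0.30. Ctsk, the collagen-degrading cathepsin K, fell in all clones (-4.93, -5.61 and -5.09, adjusted p = 1.68e-08, 4.44e-09 and 9.62e-09) and Ctso, another cathepsin, rose in all (1.25, 1.20 and 0.88, adjusted p = 1.73e-08, 1.94e-08 and 3.32e-07). Casp8, which starts apoptosis from death receptors, fell in all clones (-0.33, -0.42 and -0.70, adjusted p = 0.000180, 2.09e-05 and 2.31e-07), and Lgmn, the lysosomal protease legumain, rose in all (0.25, 0.67 and 0.51, adjusted p = 0.00817, 3.66e-06 and 4.41e-05). Relative to the 20 nearest tested genes Casp8 was called in KO3 alone, with -0.14 in KO1 (adjusted p = 0.0893) and 0.018 in KO2 (adjusted p = 0.831). On that scale Lgmn was called in no clone (0.095, 0.15 and -0.044, adjusted p = 0.435, 0.188 and 0.724).

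Extracellular inhibitors of other families were higher more often than lower in KO1 and KO2. Of 16 tested, 8 were higher and 3 lower in KO1, 9 and 4 in KO2 and 7 and 6 in KO3, with medians of 0.38, 0.41 and 0.28. Timp3, a metalloproteinase inhibitor bound to the matrix, rose in all clones (1.84, 2.58 and 1.56, adjusted p = 2.08e-10, 1.52e-11 and 7.04e-10), and so did Slpi, a secreted inhibitor of leukocyte elastase (3.22, 2.49 and 1.02, adjusted p = 6.95e-11, 5.36e-10 and 1.62e-06), and Itih3 (3.16, 2.21 and 1.83, adjusted p = 1.60e-08, 3.11e-07 and 1.88e-06). Ecm1, an extracellular matrix protein, fell in all (-2.08, -0.48 and -2.05, adjusted p = 1.58e-10, 4.96e-05 and 1.43e-10). The KO2 call of Ecm1 ended relative to the 20 nearest tested genes (-0.19, adjusted p = 0.0642).

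Compared directly, the clones also differed from one another. Between KO2 and KO1, 3 Serpin genes were higher and 25 lower in KO2, while 20.5% of all genes tested were called higher and 23.9% lower. Between KO3 and KO1, 11 were higher and 11 lower in KO3, with backgrounds of 20.3% and 23.4%. All 10 clade B calls in that comparison were higher in KO3, and all 9 clade A calls were lower in KO3. Between KO3 and KO2, 15 were higher and 5 lower in KO3, with backgrounds of 26.1% and 27.0%. These counts also depend on the filter, which many genes passed through the clone in which they were high. Of the 30 tested genes, 26 had at least 10 normalized counts in all 3 KO1 libraries, 15 in KO2 and 22 in KO3. The clade A calls include the Serpina1 near copies, between which the split of reads is uncertain. Between KO3 and KO1, 7 of the 10 clade B calls were Serpinb9 genes of 1 cluster. Serpinb9d to Serpinb9g share sequence, so the split of their reads is uncertain too.

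Genes around the clusters were described by their medians. The 20 tested genes nearest to Serpina3n on chromosome 12, with Serpin genes left out, had median log2 differences of 0.30, 0.49 and 0.50 in KO1, KO2 and KO3. Those nearest to Serpinb9b on chromosome 13 had medians of -0.32, -0.46 and -0.42. These medians were smaller in size than the KO1 difference of Serpina3n or Serpinb9b, but larger than the KO2 difference of Serpina1a, Serpinb9 or Serpinb9b.

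Per kilobase of exon, the levels of abundant Serpin genes shifted relative to one another between groups. In WT Serpinh1 was at 24451 ± 3597 normalized counts per kilobase (SD, n = 3), Serpinf1 at 8651 ± 103, Serpinb6a at 719 ± 18.2 and Serpina1a at 87.3 ± 11.6. In KO1 Serpina1a was at 7134 ± 198, above Serpinb6a at 622 ± 20.2 and below Serpinf1 at 10495 ± 124. In KO2 Serpinb6a was at 702 ± 35.1 and Serpina1a at 86.7 ± 14.3. In KO3 Serpinb9g and Serpinb6a were at 1150 ± 45.3 and 1112 ± 40.7, which differ by less than either SD.

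Markers of other cell types were checked because several of these serpins are best known from liver, blood or epithelium. Of the 12 epithelial and keratinocyte markers, 6 were tested, and 4 were higher and 2 lower in KO1, 3 and 2 in KO2 and 3 and 2 in KO3. Cdh1, Grhl2 and Krt14 were higher in all clones and Trp63 and Krt8 lower in all. Cdh1 was at 13.5 to 19.99 in WT and 170.6 to 369 in clone libraries, and Trp63 at 566 to 588 in WT and 119 to 289 in clone libraries, while Epcam reached at most 1.8 and Cldn4 was at 0 in every library. The summed epithelial level was 684 to 719 in WT, 954 to 971 in KO1, 522 to 604 in KO2 and 543 to 569 in KO3. The summed level of 12 macrophage and leukocyte markers was 1937 to 2211 in WT, 2113 to 2275 in KO1, 1599 to 1689 in KO2 and 1204 to 1429 in KO3. Of these markers Csf1r and Itgam were lower in all clones, with Csf1r at 444 to 617 in WT and 54.9 to 168 in clone libraries. Ptprc was at most 1.0 in WT and 24.6 to 40.1 in KO1, and C1qa was at 0 in every library. The summed level of 10 endothelial markers was 292 to 318 in WT, 311 to 364 in KO1, 898 to 926 in KO2 and 291 to 386 in KO3. Tie1 alone was at 488 to 518 in KO2 and at most 10.7 in every other library. Without Tie1 the sum was 288 to 317 in WT, 311 to 362 in KO1, 405 to 410.1 in KO2 and 290 to 375 in KO3. These sums hide opposite moves of single genes. Of 7 tested endothelial markers, 4 were higher and 1 lower in KO1, 2 and 1 in KO2 and 2 and 1 in KO3. Cdh5 was at 5.88 to 29.8 in WT and 151 to 188 in KO1, and Egfl7 at 185 to 199 in WT and 12.7 to 20.7 in KO1. Flt1 was lower in KO2 and KO3 than in WT. Whether these markers and the Serpin changes are linked was not tested.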

How the data were processed

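The libraries were prepared from total RNA with ribosomal depletion and random priming, per the labels' protocols. The submitters' processing notes name cutadapt, Salmon 0.14.1, DESeq2 1.24.0 and the build GRCm38. The authors deposited normalized counts per gene, a signal without a unit of its own. Each value is a whole multiple of the library's smallest step (99.94% to 99.99% of values, within 0.02), which gave back whole read counts. The authors' deposited tables of log2 fold changes with their p-values were read and are not quoted here. Identifiers were matched to GENCODE M21 (54357 matched, 35 did not), and no column was left unassigned to a sample.

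The test was limma 3.58.1 (R 4.3.3) with a trended prior on log2(normalized count + 1), all 12 libraries in 1 fit, over 15073 genes with at least 10 in at least 3 libraries, and p-values were adjusted by Benjamini-Hochberg over all of them at a threshold of 0.05. A fold change is on the log2(value + 1) scale. The added 1 pulls the change of low genes toward 0. A single library near 0 can enlarge the change instead, as WT replicate 1 does for Serpinb1b. Every adjusted p is limma's, and every difference is clone minus WT unless stated. Adding 1 count per library limits low genes, so for several genes with 3 reads or fewer in a group the read ratio, with its exact 95% interval, or a bound against 3 reads over the group is given. Such a bound takes the reads of the higher group as exact. Alternatives were pseudocounts of 0.5 and 5, no filter, a mean of at least 50, quantile and upper-quartile normalization, edgeR 4.0.16 and DESeq2 1.42.0 on recovered counts, only the groups compared, a replicate block, each library left out, and the median of the 20 nearest tested genes subtracted. On simulated data with 15073 genes for KO1 against WT, the test recovered 66 of 100 genes changed by a log2 of 1 and 94 of 100 changed by 2. It also called 12 unchanged genes. No other genes were changed, and only KO1 was. Far more genes were called in the real data, so these rates do not carry over to it.

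Named genes were Serpin genes, in full where a group mean reached 100, and up to 4 genes of each list with the smallest largest adjusted p over the clones. Serpin members and lists were chosen with earlier results of these data known. Shared 31-base words were counted over GENCODE M21 transcripts. Promoters came from RefSeq (GRCm38.p6), with an entry for 52 of 61 genes and for 27 of the 30 tested. Values of 1 Serpin gene are not reported here, though the counts of calls include it.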

Additional observations from a re-analysis of the deposited data

Results flagged for a closer look

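Of 30 tested Serpin genes, 4 were called against WT in opposite directions in different clones, and the difference between those clones was itself called by limma. How many of all genes tested had such opposite calls was not counted, so the 4 cannot be set against a background. Serpina11 was higher in KO1 and KO3 and lower in KO2 than in WT: on the log2 scale KO2 lay below KO1 at -5.89 (adjusted p = 3.89e-08), and the KO3 minus KO2 difference stood at 3.79 (adjusted p = 1.05e-06). As KO2 has 0 reads of Serpina11, these correspond to bounds of at least 64.0-fold more in KO1 and at least 14.3-fold more in KO3. Serpinb9g followed the same pattern, with KO2 minus KO1 at -7.26 (adjusted p = 1.67e-07) and KO3 minus KO2 at 9.72 (adjusted p = 7.62e-09). Serpinf1 did so at a small size, with KO2 minus KO1 at -0.62 (adjusted p = 1.87e-05) and KO3 minus KO2 at 0.99 (adjusted p = 1.88e-07). Serpinb6a was lower in KO1 and higher in KO3 than in WT, and KO3 minus KO1 was 0.84 (adjusted p = 1.01e-07).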

How the results depend on the processing

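Of 403 recomputed counts, 396 were within 1.5 times the reported one. With a mean of at least 50 required, 14 Serpin genes were called in KO1 against WT (12 higher, 2 lower) and 17 in KO2 against KO1 (2 higher, 15 lower), since fewer genes were tested. The 5 Serpin genes called alike in all 3 clones became 8 (7 higher, 1 lower) with upper-quartile scaling, 3 (2 higher, 1 lower) with only the groups compared and 10 (9 higher, 1 lower) with the neighbours' median subtracted. With that subtraction the granule, lysosomal and caspase list had 4 calls (3 higher, 1 lower) in KO1 and in KO2, and reversed values were 0.089 for Serpinb6a in KO1 (adjusted p = 0.449), 0.40 for Serpinb6a in KO2 (adjusted p = 0.00197), 0.018 for Casp8 in KO2 (adjusted p = 0.831) and -0.044 for Lgmn in KO3 (adjusted p = 0.724). The cause was not tested. Leaving out 1 library gave 24 to 28 Serpin calls in KO1, 10 to 13 in KO2, 21 to 23 in KO3 and 4 to 7 alike in all clones. Of 1494 recomputed Serpin differences from WT, 1429 kept direction and side of the threshold, 19 lost the call, 44 gained one and 2 reversed. edgeR called 24, 14 and 22 Serpin genes in KO1, KO2 and KO3, and DESeq2 24, 14 and 23.

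The labels give every group replicates 1 to 3, but same-numbered libraries did not deviate together (correlations -0.22 to 0.12, with every pair above 0.1 in 0 of 6 comparisons). With the number as a replicate block, 25, 11 and 22 Serpin genes were called in KO1, KO2 and KO3 and 6 alike in all. Genes at a few reads, such as Serpine2, Serpind1 and Serpina3i, are limited by depth.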

Other observations

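A Serpin-named pseudogene outside the family as chosen, Serpina3h, was also high in KO1. It is a transcribed pseudogene on chromosome 12 and was at 14.1, 9.3 and 3.6 normalized counts in WT, 93.1, 68.6 and 79.7 in KO1, 8.4, 14.4 and 7.0 in KO2 and 1.0, 0 and 0 in KO3. KO1 lay above and KO3 below all WT libraries, and KO2 overlapped WT. Serpina3i shares 16.3% of its 31-base words with Serpina3h, so the split of reads between them is uncertain. It was chosen after its values were seen.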
